A study of Zea mays with 6 samples.

Results

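The rows described here are the most abundant transcripts of the developing maize (Zea mays) kernel, at the scale of storage protein messages. They were chosen by level: a row was taken when the plain mean of its 6 deposited values was at least 1000 RPKM, that is, reads relative to the length of the gene model and to the read total of the library. Of 41406 rows, 76 met this rule (0.184%), at 67 distinct loci out of 36762. RNA came from pooled kernels at 15 days after pollination (DAP), with 3 libraries of wild type (WT) and 3 of kernels homozygous for a zmbzip22 mutation. No source used here gives the inbred background or the allele. Replicates 1 and 2 of both genotypes had 6-base barcodes and replicate 3 of both had 8-base barcodes, so each genotype comparison was also read within barcode length. Nothing in the labels ties a library to an ear or a plant of its own, and the p-values therefore reflect the spread between libraries, which may be technical.

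Maize endosperm, the starchy part of the kernel, stores most of its protein as zeins, alcohol-soluble prolamins that are packed into protein bodies of the endoplasmic reticulum. Zein genes are short and lack introns, and the alpha zeins form large families whose near-identical copies lie in tandem. Their transcription in the endosperm is driven by factors such as Opaque2 and the prolamin-box binding factor. ZmbZIP22 is a transcription factor of the same bZIP class as Opaque2 and has been described as a regulator of a gamma-zein gene. The files name rows only by coordinates of the B73 RefGen_v3 build, and 0 of the 67 loci matched an identifier of the gene table used here. No row is therefore given a gene name or a zein class, and whether a position is exonic, intronic or untranslated was not analysed here. For the same reason the kernel label was not checked against marker genes, nor the genotype label against the mutated gene. Rows are called below by their rank in mean RPKM, from 1, the highest, to 76.

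Depth was estimated from the steps of low values at 1.13e+07 reads in WT replicate 2, the shallowest library, and at 1.44e+07 to 1.59e+07 in the other 5. At that depth 3 reads on a 1 kb model correspond to 0.189 to 0.264 RPKM, a limit that covers counting error only and lies far below every row described here. RPKM was divided by a factor per library (0.947 to 1.02, from the median of ratios), and per-library levels below are in this scaled RPKM unless deposited RPKM is named. Replicate 3 of both genotypes stood apart from the other libraries in a set of 7 abundant rows, which is described with the barcode comparison. Near-identical copies share reads, and no source used here says how the authors assigned such reads. Values of rows in tandem or at a shared locus are therefore uncertain one by one.

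Abundance was steeply graded. The row ranked 1 held 13.1% of the deposited mean RPKM of the 76 rows, the first 5 held 32.9%, the first 10 held 52.7% and the first 20 held 75.9%. At least 10000 RPKM was reached by 19 rows, which carried 74.6% of the total of the 76, 12 rows lay between 5000 and 10000, 19 between 2000 and 5000 and 26 between 1000 and 2000. The rows just inside the threshold were rank 76 at chromosome 3, 17614008 to 17614990, with a mean of 1044 RPKM, rank 75 at chromosome 6, 70732362 to 70733351, with 1071, and rank 74 at chromosome 9, 1427242 to 1428578, with 1073. Just outside it lay rows at chromosome 4 from 218054499 with 993, at chromosome 7 from 173595108 with 991 and at chromosome 2 from 41931697 with 966. The rule thus cut a continuous range, and the means of the 2 rows next to the threshold differed by less than either row varied over its 6 libraries.

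**Figure D1:**
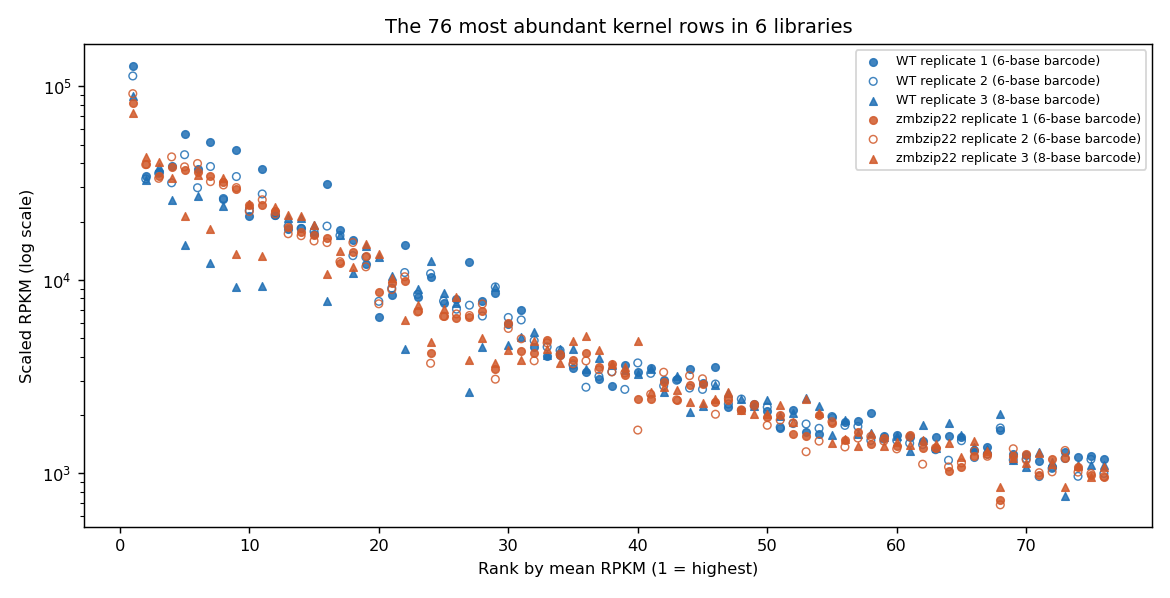
Scaled RPKM (log axis) of the 76 rows in the 6 libraries against their rank in mean RPKM; blue marks are WT, orange marks zmbzip22, and triangles are the libraries with 8-base barcodes. The row ranked 1 lies above all others in every library, and in a few rows (ranks 5, 7, 9, 11, 16, 22 and 27) both triangles lie far below the circles.

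The loci were narrow. Their median width was 1396 bases against 2935 over all rows, with a range from 330 bases (rank 7) to 47241 bases (rank 52). Loci of up to 1000 bases made up 24 of the 76 rows (31.6%, against 16.05% of all rows) and 38.0% of their summed mean RPKM. Loci of over 1000 and up to 3000 bases gave 33 rows and 46.9% of it, and wider loci gave 19 rows and 15.1%. RPKM divides by the length of the gene model, which was not used here, so width is that of the locus and can include introns.

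Chromosomes 4 and 7 carried most of the level. Chromosome 4 held 20 of the 76 rows (26.3%, against 10.4% of all rows) with 33.9% of their summed RPKM, and chromosome 7 held 12 rows (15.8% against 7.81%) with 30.7%. Chromosome 6 followed with 10 rows and 10.9%, and chromosome 2 with 4 rows and 7.03%. Chromosome 1 also had 10 rows (13.2%, against 16.4% of all rows), but these made up only 5.80% of the summed RPKM. Chromosome 8 had 7 rows, chromosomes 5 and 9 had 4 each, chromosomes 3 and 10 had 2 each, and 1 row lay on an unplaced sequence, scaffold_495. These shares describe rows chosen by level and carry no test.

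Neighbouring rows of this abundance were frequent. With neighbours taken as loci at most 50 kb apart, 20 of the 76 rows lay in 4 groups of at least 3 rows, 12 lay in 6 pairs and 44 had no such neighbour. At 6 loci more than 1 of the 76 rows shared the same coordinates, 15 rows in all, which counts as neighbourhood here. Rows that share coordinates are called models of their locus below, but no source used here says what sets them apart. Whether they are transcripts of a single gene or separate genes was not tested. The groups lay at chromosome 4 from 5098146 to 5177135 (8 rows at 4 loci), chromosome 4 from 5521258 to 5561370 (6 rows at 5 loci), chromosome 7 from 18865423 to 18878182 (3 rows at 3 loci) and chromosome 7 from 120206896 to 120236057 (3 rows at 2 loci).

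Together the 76 rows took more than 50% of the summed RPKM in each library. Their share in replicates 1, 2 and 3 was 58.6, 56.4 and 50.6% for WT and 54.3, 54.7 and 51.9% for zmbzip22. The genotypes overlapped, and the lowest share in both was that of the library with 8-base barcodes. The means were 55.2% ± 4.12 for WT and 53.6% ± 1.51 for the mutant (SD, n = 3 each), a mutant minus WT difference of -1.55 percentage points that was smaller than the spread among WT libraries. Within 6-base barcodes the difference was -2.97 points and within the 8-base pair it was 1.31 points, so its direction was not the same. When each row was weighted by its locus width, the share was 49.8% ± 0.23 for WT and 49.9% ± 0.435 for the mutant (SD, n = 3 each), and the libraries lay between 49.4 and 50.3%. That weighting gives most weight to wide loci and is not a share of reads, since a locus can be wider than its model.

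**Figure D2:**
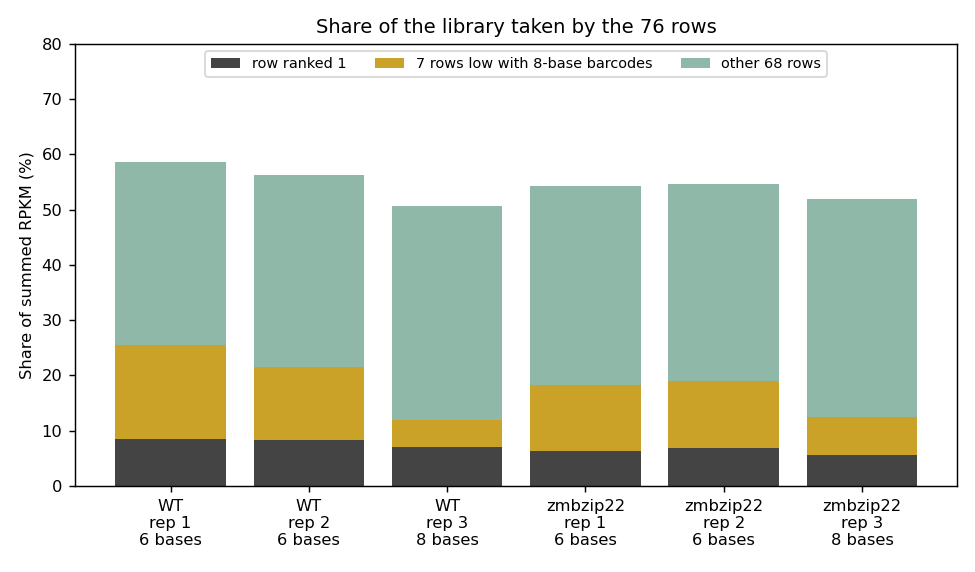
Share of the summed RPKM of each library taken by the 76 rows, split into the row ranked 1, the 7 rows that were low with 8-base barcodes and the other 68 rows; each bar is 1 library and the axis starts at 0. The 7 rows take 12.0 to 16.9% with 6-base barcodes and 4.84 and 6.80% with 8-base barcodes.

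The genotype comparison asks which of these messages differ when zmbzip22 is mutated. Of the 76 rows, 0 were higher and 4 were lower in the mutant (limma over 28172 rows, adjusted p below 0.05), where 0.39% of all tested rows were higher, 0.302% lower and 0.692% either. All 76 passed the filter on low values. An unadjusted p below 0.05 was reached by 18 rows, 3 higher and 15 lower, against a background of 9.84% of tested rows. All 3 mutant libraries lay below all 3 WT libraries in 16 rows and above them in 3, against 7.86% lower, 7.89% higher and 15.8% either way over all tested rows. The median log2 difference was -0.06 over the 76 rows, of which 28 were positive, and 0.002 over all tested rows. Among the 72 rows that were not called the log2 difference ran from -0.47 to 0.45, and 51 of the 76 rows lay within 0.2 of no difference. In bulk kernels, fewer cells that express a row and less RNA per cell cannot be told apart.

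The clearest falls were 3 short loci of chromosome 7, all between 18755935 and 18878182. Rank 24, at 18755935 to 18756661 (727 bases), measured 10361, 10754 and 12502 in WT and 4181, 3697 and 4744 in the mutant. Its mean was 11206 ± 1140 for WT and 4207 ± 524 for the mutant (SD, n = 3 each), 2.66-fold lower, a log2 difference of -1.42 (SE 0.115, limma, adjusted p = 0.00365). All mutant libraries were well below all WT libraries, in both barcode lengths. Rank 29, at 18779574 to 18780300 (727 bases), measured 8491, 9182 and 9198 in WT and 3453, 3059 and 3698 in the mutant, with a log2 difference of -1.40 (SE 0.0881, limma, adjusted p = 0.00157). Rank 68, at 18867731 to 18868453 (723 bases), measured 1674, 1712 and 2016 in WT and 729, 685 and 844 in the mutant, with a log2 difference of -1.26 (SE 0.106, limma, adjusted p = 0.00395). The fall was thus 2.63-fold for rank 29 and 2.39-fold for rank 68, with no overlap of genotypes in either row. Each of the 3 rows was called in all 15 alternatives run, which include leaving out each library in turn.

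The neighbours of these 3 rows went the other way in direction. Rank 2, at 18865423 to 18866146 (724 bases), measured 34259, 33213 and 32770 in WT and 39496, 39378 and 43206 in the mutant. Its means were 33414 ± 765 and 40693 ± 2177 (SD, n = 3 each), a log2 difference of 0.28 (SE 0.0737) that was not called (limma, adjusted p = 0.194 without and 0.0589 with barcode length as a covariate). Rank 8, at 18877459 to 18878182 (724 bases), measured 26284, 26293 and 24081 in WT and 31892, 30903 and 33638 in the mutant. Its log2 difference was 0.33 (SE 0.0758) and was not called either (limma, adjusted p = 0.138 without and 0.0503 with the covariate). In both rows all 3 mutant libraries lay above all 3 WT libraries. Rank 68 lies between these 2 rows on the chromosome.

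The makeup of this stretch thus differed between the genotypes, while its total level overlapped. The 3 called rows supplied 25.3, 26.7 and 29.4% of the summed scaled RPKM of the 5 rows for WT replicates 1, 2 and 3, but 10.5, 9.57 and 10.8% for those of the mutant. Ranks 2 and 8 supplied the rest, 70.6 to 74.7% for WT and 89.2 to 90.4% for the mutant. The 5 rows, joined when neighbours up to 200 kb apart are taken, summed to 80930 ± 318 for WT and 81201 ± 4387 for the mutant (SD, n = 3 each, exact two-sided permutation p = 1, smallest possible 0.1). With the 50 kb limit ranks 2, 68 and 8 alone form a group, and its sum was 60768 ± 1720 for WT and 73590 ± 3594 for the mutant (SD, n = 3 each, exact two-sided permutation p = 0.1, the smallest possible). The mutant mean was the higher one under both limits, while the libraries of the genotypes overlapped only under the wider one. Whether these rows are similar in sequence, and whether any reads they share were divided unequally in the 2 genotypes, was not tested. Loci of these widths, 723 to 727 bases, numbered 64 among all rows, of which 7 (10.9%) were among the 76, and 2 of the 7 lay outside this stretch, at ranks 35 and 43 on chromosome 1.

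**Figure D3:**
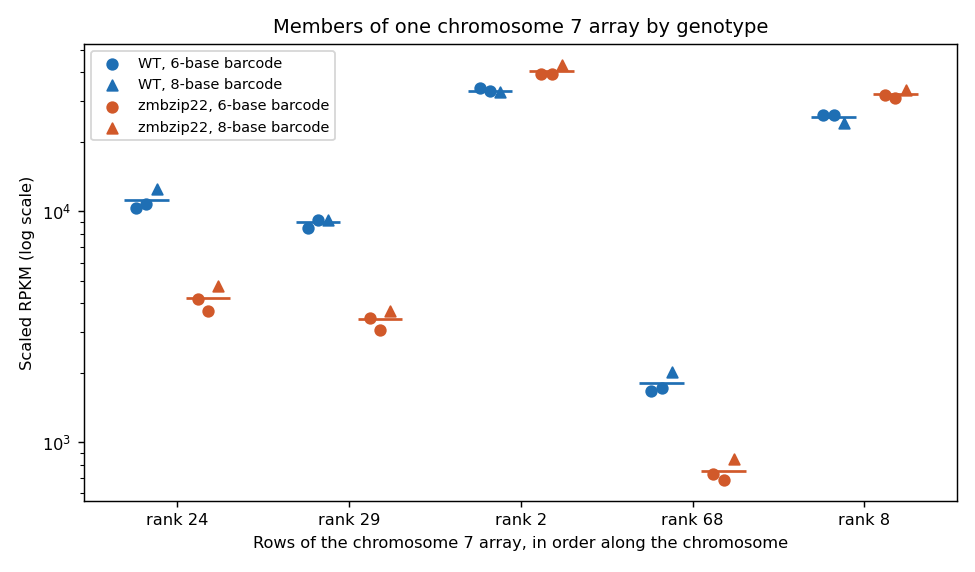
Scaled RPKM (log axis) of the 5 abundant rows of chromosome 7 between 18755935 and 18878182 in their order on the chromosome; each mark is 1 library and lines are means of 3 libraries. Ranks 24, 29 and 68 are lower in every zmbzip22 library, while ranks 2 and 8 are higher in every one without passing the test.

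The 4th called row, rank 41, lies on chromosome 1 at 197301248 to 197304338 (3091 bases). It measured 3487, 3279 and 3467 in WT and 2427, 2559 and 2639 in the mutant. Its means were 3411 ± 115 and 2542 ± 107 (SD, n = 3 each), 1.34-fold lower, a log2 difference of -0.42 (SE 0.0673, limma, adjusted p = 0.0442). The second row of the same locus, rank 65, measured 1536, 1471 and 1583 in WT and 1077, 1129 and 1215 in the mutant, also with a log2 difference of -0.42 (SE 0.0715), and missed the threshold (limma, adjusted p = 0.0564). The level of rank 41 was 2.17 to 2.27 times that of rank 65 in every library, so the 2 models moved together and are not taken as separate support. The call of rank 41 was the least stable of the 4: without WT replicate 1, 2 or 3 its adjusted p was 0.159, 0.140 and 0.125, and without zmbzip22 replicate 1, 2 or 3 it was 0.238, 0.171 and 0.0978 (limma).

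With barcode length as a covariate 12 of the 76 rows were called lower and 0 higher (limma), against 0.603% lower and 0.728% higher over all tested rows. At an unadjusted p below 0.05 (limma) that fit had 21 rows lower and 8 higher. The background of 9.84% given above belongs to the fit without covariate, and that of the fit with it is not given here. These 2 counts are therefore not read as an excess. The margins were small: rank 1 was called lower at an adjusted p of 0.0498, while ranks 8, 36 and 2 were higher and missed the threshold at 0.0503, 0.0558 and 0.0589 (limma). The 12 included the 4 rows above. The other 8 were ranks 1, 17, 23, 25, 31, 43, 56 and 65, with log2 differences of -0.47 to -0.25 and adjusted p from 0.0127 to 0.0498 (limma). In the 4 libraries of 6-base barcodes alone 3 rows were called lower, ranks 24, 29 and 68 (limma, background 0.134% lower and 0.116% higher).

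Among these 8 was the most abundant row of the kernel. Rank 1, at chromosome 7, 120233939 to 120236057 (2119 bases), measured 127498, 113132 and 89436 in WT and 82311, 91668 and 72598 in the mutant. Its share of all RPKM was 8.56, 8.28 and 7.13% for WT and 6.25, 6.93 and 5.67% for the mutant. The mutant was lower within both barcode lengths, but zmbzip22 replicate 2 lay above WT replicate 3, so the genotypes overlapped in level, though not in share. The log2 difference was -0.41 (SE 0.148, limma, adjusted p = 0.396 without and 0.0498 with the covariate). A second model of the locus, rank 31, measured 6939, 6195 and 5053 in WT and 4268, 4949 and 3849 in the mutant. Here the genotypes did not overlap, and the log2 difference was -0.47 (SE 0.138, limma, adjusted p = 0.268 without and 0.037 with the covariate). Rank 1 stood at 17.7 to 19.3 times rank 31 in every library.

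The third row of this group, rank 26 at 120206896 to 120208211 (1316 bases), was not called in either fit. It measured 7924, 7042 and 7598 in WT and 6345, 6655 and 8156 in the mutant, with overlapping genotypes and a log2 difference of -0.10 (SE 0.108, limma, adjusted p = 0.856 without and 0.669 with the covariate). With 6-base barcodes both mutant libraries lay below both WT libraries, by a log2 of -0.20, and whether rank 26 differed from ranks 1 and 31 was not tested. The group of 3 rows summed to 123606 ± 20279 for WT and 93600 ± 9353 for the mutant (SD, n = 3 each, exact two-sided permutation p = 0.2, smallest possible 0.1). The mutant minus WT difference of the sums was -36267 scaled RPKM within 6-base barcodes and -17484 within the 8-base pair. Without the row ranked 1, the share of the other 75 rows was 47.2% ± 3.37 for WT and 47.3% ± 0.984 for the mutant (SD, n = 3 each). Their mutant minus WT difference was -1.14 percentage points within 6-base barcodes and 2.77 points within the 8-base pair. The near-equal means thus join differences of opposite sign.

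Of the other rows called with the covariate, rank 17 was the most abundant. It lies on chromosome 4 at 29963320 to 29964591 (1272 bases) and measured 18070, 16939 and 16947 in WT and 12131, 12396 and 14005 in the mutant. Its means were 17318 ± 650 and 12844 ± 1014 (SD, n = 3 each) with no overlap, a log2 difference of -0.43 (SE 0.0813, limma, adjusted p = 0.0756 without and 0.027 with the covariate). Its neighbour rank 15, at 29951760 to 29952727 (968 bases), measured 17278, 17766 and 19165 in WT and 17051, 15865 and 19263 in the mutant, and the genotypes overlapped. Rank 43, at chromosome 1, 162006910 to 162007636 (727 bases), measured 3059, 3021 and 3196 in WT and 2392, 2393 and 2702 in the mutant. Its log2 difference was -0.31 (limma, adjusted p = 0.159 without and 0.0298 with the covariate). Rank 56, at chromosome 4, 58979525 to 58985686 (6162 bases), measured 1835, 1765 and 1888 in WT and 1475, 1366 and 1507 in the mutant. Its log2 difference was -0.34 (limma, adjusted p = 0.101 without and 0.0298 with the covariate), and both rows showed all mutant libraries below all WT libraries.

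The 2 groups on the short end of chromosome 4 held 14 rows and showed no call without the covariate. In the first, from 5098146, ranks 10, 33, 37, 47 and 51 are 5 of the 8 models of a locus 43931 bases wide that ends at 5142076. Rank 10 measured 21275, 22874 and 24558 in WT and 24413, 22545 and 24556 in the mutant, with overlapping genotypes and a log2 difference of 0.06 (limma, adjusted p = 0.898). The other 4 models ranged from 1721 (rank 51) to 4883 (rank 33) over the 6 libraries, with overlapping genotypes in each and positive log2 differences of 0.08 to 0.17 that were not called. Rank 21, at 5171932 to 5177135 (5204 bases), measured 8378, 9044 and 10406 in WT and 9576, 8899 and 10228 in the mutant and overlapped as well.

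The remaining rows of that group were lower in every mutant library. Rank 23, at 5157898 to 5159215 (1318 bases), measured 8107, 8396 and 8930 in WT and 6908, 6814 and 7439 in the mutant, a log2 difference of -0.27 (limma, adjusted p = 0.232 without and 0.0425 with the covariate). Rank 25, at 5145290 to 5146364 (1075 bases), measured 7615, 7755 and 8488 in WT and 6526, 6467 and 7068 in the mutant, a log2 difference of -0.25 (limma, adjusted p = 0.288 without and 0.0482 with the covariate). Both lie between the wide locus and rank 21. The 8 rows summed to 60382 ± 4320 for WT and 60092 ± 2861 for the mutant (SD, n = 3 each, exact two-sided permutation p = 1), a difference whose sign changed with the processing. The 4 other rows inside the 79.0 kb group had mean levels of at most 166 RPKM.

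In the second group, from 5521258, 6 rows at 5 loci within 40.1 kb held levels of 3809 to 40582. Rank 3, at 5548769 to 5561370 (12602 bases), measured 36178, 35515 and 38100 in WT and 34252, 33436 and 40582 in the mutant, with overlapping genotypes and a log2 difference of -0.02 (limma, adjusted p = 0.97), a sign that turns positive with values as deposited. Ranks 13, 14 and 19, at 5544524 to 5545663, 5535485 to 5536705 and 5539879 to 5541152, ran from 11661 to 21511, and in each the 2 highest libraries were the 8-base ones. Rank 32, at 5521258 to 5523302, measured 4495, 4846 and 5390 in WT and 4168, 3809 and 4837 in the mutant, a log2 difference of -0.20 that was not called (limma, adjusted p = 0.631). The 6 rows summed to 99085 ± 4958 for WT and 96867 ± 9844 for the mutant (SD, n = 3 each, exact two-sided permutation p = 0.8). The 4 less abundant rows inside the group had means of 131 to 375 RPKM.

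No row was called higher in the mutant, and the largest positive differences were these. Rank 36, at chromosome 6, 121573175 to 121574010 (836 bases), measured 3323, 2781 and 3455 in WT and 4164, 3804 and 5117 in the mutant, the largest at a log2 of 0.45 (SE 0.131, limma, adjusted p = 0.266 without and 0.0558 with the covariate). Its genotypes did not overlap, as in ranks 2 and 8. Rank 4, at chromosome 2, 183991960 to 183993036 (1077 bases), measured 38757, 31709 and 25749 in WT and 38356, 43175 and 33767 in the mutant, a log2 difference of 0.27 (SE 0.159, limma, adjusted p = 0.664). Rank 6, at chromosome 6, 44541824 to 44542774 (951 bases), measured 37288, 29904 and 27221 in WT and 36110, 39899 and 34602 in the mutant, a log2 difference of 0.24 (SE 0.126, limma, adjusted p = 0.622). In ranks 4 and 6 the genotypes overlapped. Of the largest negative differences only rank 46 has not been given: at chromosome 7, 24164577 to 24165296 (720 bases), it measured 3544, 2889 and 2847 in WT and 2340, 2016 and 2419 in the mutant, a log2 difference of -0.45 (SE 0.112, limma, adjusted p = 0.178) with no overlap.

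The 4 calls are too few to compare widths or levels, and ranks 24, 29 and 68 among them lie in a single stretch of chromosome 7. Of the 4 rows called lower, 3 were among the 24 rows with loci of up to 1000 bases, 0 among the 33 of over 1000 and up to 3000 bases and 1 among the 19 wider ones. By level, 0 of the 19 rows of at least 10000 RPKM were called, 2 of the 12 between 5000 and 10000, 1 of the 19 between 2000 and 5000 and 1 of the 26 between 1000 and 2000. The 12 rows of 5000 to 10000 RPKM had sums of 105377, 97247 and 91287 in the WT libraries and of 79108, 78033 and 78178 in the mutant libraries. In that class the genotypes did not overlap, and the called ranks 24 and 29 supply most of the difference of means. Whether these differences between classes exceed the spread was not tested.

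Within barcode length the genotype difference kept its sign in 55 of the 76 rows. It was negative in both barcode lengths in 32 rows and positive in both in 23. In 16 rows the mutant was lower with 6 bases and higher with 8 bases, and in 5 rows the reverse. With 6-base barcodes both mutant libraries lay below both WT libraries in 36 rows and above them in 10. Neither the share of all tested rows separated in this way nor their signs within barcode length were determined. The counts of signs and of separated rows therefore have no background and are not read as a result about these rows. The interaction of genotype and barcode length called 0 of the 76 rows, as of all tested rows (limma, background 0%), and 8 rows had an unadjusted p below 0.05, where the background was 3.86%. The 8-base arm has 1 library per genotype.

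**Figure D4:**
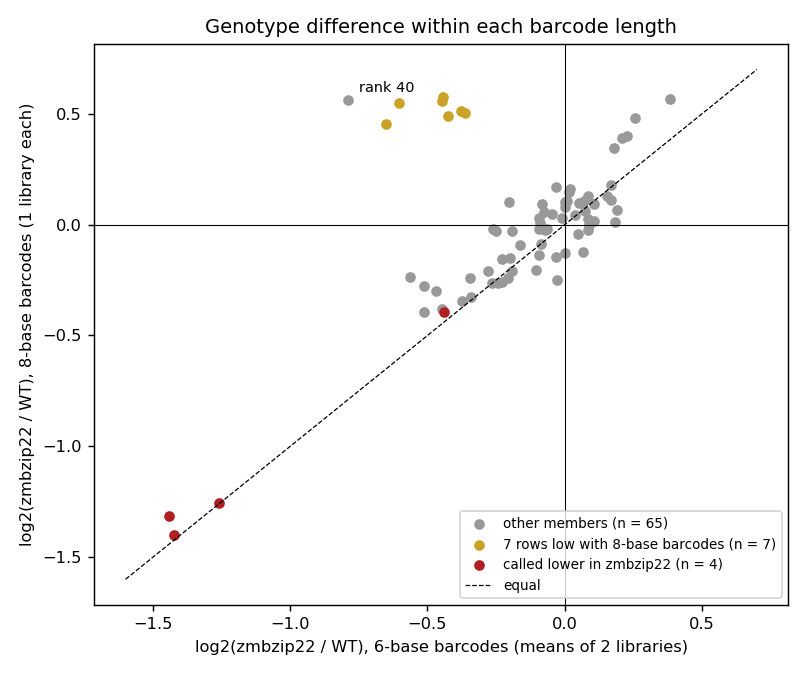
Log2 of zmbzip22 over WT for each of the 76 rows, from the means of 2 libraries per genotype with 6-base barcodes (horizontal) and from 1 library per genotype with 8-base barcodes (vertical); the dashed line marks equal values. The 4 called rows lie near the line, and the 7 rows that were low with 8-base barcodes lie with rank 40 at the upper left, lower in the mutant with 6 bases and higher with 8.

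The same fit, with both terms, gave the comparison of barcode lengths. In it 10 of the 76 rows were lower and 4 higher with 8-base barcodes (limma, adjusted p below 0.05), against 0.49% lower and 1.33% higher over all tested rows. The genotype term of that fit called 12. With values as deposited the split was 11 lower and 8 higher. Both 8-base libraries lay below all 6-base libraries in 18 rows and above them in 16, where the background was 11.5% and 12.3%. Barcode length is balanced over the genotypes, and the labels do not say whether replicate 3 differed in plants, harvest or sequencing run as well, so these cannot be told apart. The calls rest on both 8-base libraries. Without WT replicate 3 or without zmbzip22 replicate 3 a lone 8-base library is left, which would have to be assumed to vary like the others. Without WT replicate 1 or 2 there were 18 and 10 called rows, and without zmbzip22 replicate 1 or 2 there were 4 and 3. The share of all tested rows called in these fits is not given here, so the counts show only that the calls were unstable.

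The largest of these differences lay in 7 very abundant rows with loci of 330 to 1509 bases. Rank 9, at chromosome 7, 172632626 to 172633412 (787 bases), measured 46658, 34160 and 9174 in WT and 29369, 29946 and 13519 in the mutant. Replicate 3 was far below the other replicates in both genotypes, to 0.324 times their mean level and with a log2 difference of -1.63 (limma, adjusted p = 0.0219). Rank 5, at chromosome 10, 113171616 to 113173124 (1509 bases), measured 56737, 44308 and 15131 in WT and 36892, 38354 and 21275 in the mutant. Rank 7, at chromosome 4, 159534565 to 159534894, the narrowest of all 76 loci, measured 51752, 38495 and 12244 in WT and 34200, 32145 and 18258 in the mutant. The order of the libraries was nearly the same in each: WT replicate 1 highest, WT replicate 3 lowest and zmbzip22 replicate 3 next to lowest.

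The other 4 repeated this order. Rank 11, at chromosome 6, 11758362 to 11758968 (607 bases), measured 37561, 27766 and 9332 in WT and 24388, 25903 and 13321 in the mutant. Rank 16, at scaffold_495, 15940 to 16590 (651 bases), measured 31182, 18937 and 7784 in WT and 16341, 15563 and 10652 in the mutant. Both had replicate 3 lowest in each genotype. Rank 22, at chromosome 1, 34357347 to 34357761 (415 bases), measured 15189, 10894 and 4369 in WT and 9907, 10362 and 6185 in the mutant. Rank 27, at chromosome 6, 10131643 to 10132213 (571 bases), measured 12316, 7384 and 2639 in WT and 6444, 6528 and 3859 in the mutant. Of the 7 rows 5 were called for barcode length, and ranks 16 and 27 were not (limma, adjusted p = 0.0948 and 0.0704).

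The 7 rows were picked after their values were seen, as those whose 8-base mean was below 0.5 of their 6-base mean. Their ratios ran from 0.324 to 0.455, and the next lowest among the 76 was 0.647, at rank 73. They lie on 6 chromosomes or scaffolds and have no neighbour among the 76 within 50 kb. Relative to WT replicate 1 they moved alike: their median level was 0.732 in WT replicate 2 (range 0.600 to 0.781), 0.248 in WT replicate 3 (0.197 to 0.288), 0.649 and 0.642 in zmbzip22 replicates 1 and 2, and 0.353 in zmbzip22 replicate 3 (0.290 to 0.407). Their joint share of all RPKM was 16.9, 13.3 and 4.84% for WT and 12.0, 12.0 and 6.80% for the mutant. That of the other 69 rows was 41.7, 43.0 and 45.8% for WT and 42.4, 42.7 and 45.1% for the mutant, highest in replicate 3 of each genotype. Since the 7 rows were picked as low with 8 bases, this split describes the shares and is no test. Rank 1, among the 69, itself had its lowest share in replicate 3, 7.13% for WT and 5.67% for the mutant.

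Falls of this size were rare elsewhere. A log2 difference below -1 for 8 against 6 bases was found in 28 of 28172 tested rows (0.0994%), and apart from the 7 these had mean levels of at most 15.0 RPKM, while 8354 other tested rows outside the 76 lay above that level. Narrow loci of lower abundance did not show it. Among 107 rows of 100 to 1000 RPKM with loci of up to 1000 bases, 0 had such a fall, 12 were called higher and 9 lower with 8 bases, and the median log2 difference was 0.10. In the 76 rows, the other narrow loci scattered on both sides of 0.

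**Figure D5:**
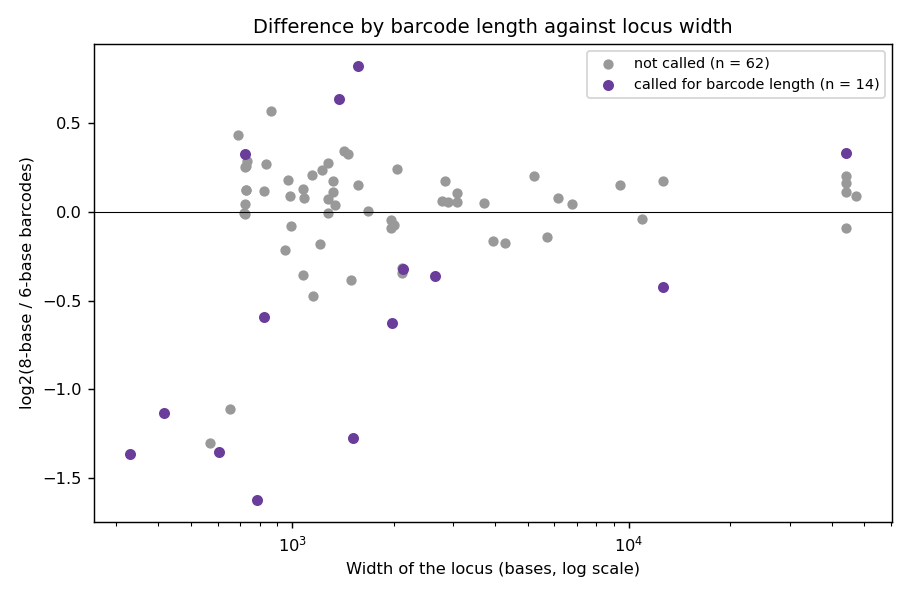
Log2 difference of 8-base against 6-base barcodes for each of the 76 rows against the width of its locus in bases (log axis); purple points were called for barcode length by limma. The 7 lowest points, between -1.63 and -1.11, belong to loci of 330 to 1509 bases, and the other loci within those widths lie between -0.59 and 0.64.

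A few rows were higher with 8-base barcodes. Rank 20, at chromosome 1, 178503666 to 178505233 (1568 bases), measured 6390, 7730 and 13031 in WT and 8613, 7508 and 13623 in the mutant, 1.76 times as much with 8 bases and a log2 difference of 0.83 (limma, adjusted p = 0.0137). A second model of that locus, rank 38, measured 2818, 3345 and 3620 in WT and 3664, 3335 and 3652 in the mutant. The ratio of the 2 models was 2.25 to 2.35 in the 6-base libraries and 3.60 and 3.73 in the 8-base libraries, so the makeup of the locus differed with barcode length in both genotypes. Rank 53, at chromosome 9, 154814152 to 154815523 (1372 bases), measured 1627, 1795 and 2438 in WT and 1562, 1290 and 2407 in the mutant, a log2 difference of 0.64 (limma, adjusted p = 0.0293). Ranks 35 and 37 were also called, both with a log2 difference of 0.33 (limma, adjusted p = 0.0293 and 0.0254).

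The same kind of shift between models was seen at the locus of rank 3. Its second model, rank 30, measured 5936, 6380 and 4592 in WT and 5987, 5600 and 4317 in the mutant, and was lower with 8 bases by a log2 of -0.42 (limma, adjusted p = 0.0199). Rank 3 itself was highest in the 8-base libraries. Its ratio to rank 30 was 5.57 to 6.09 with 6 bases, and 8.30 in WT and 9.40 in the mutant with 8 bases. At the loci of ranks 1 and 41, by contrast, the ratio of the models stayed within 17.7 to 19.3 and 2.17 to 2.27. Reads of models at a single locus may overlap, and such ratios can then depend on how the authors assigned them.

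Rank 40 varied among the mutant libraries alone. At chromosome 7, 43785028 to 43785889 (862 bases), it measured 3334, 3714 and 3245 in WT and 2410, 1669 and 4797 in the mutant, with zmbzip22 replicate 3 above and replicates 1 and 2 below every WT library. Its log2 difference between genotypes was -0.35 (SE 0.336, limma, adjusted p = 0.827). Rank 64, at chromosome 6, 39087614 to 39088302 (689 bases), and rank 54, at chromosome 8, 51608196 to 51609614 (1419 bases), had 8-base levels at 1.34 and 1.26 times the 6-base level and were not called for barcode length (limma, adjusted p = 0.103 and 0.212). Genotype was not called in either, with log2 differences of -0.35 and -0.01 (limma, adjusted p = 0.614 and 0.996).

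Spread between replicates was otherwise modest. The median coefficient of variation of the 76 rows was 8.79% among WT libraries (1.63 to 65.0%) and 9.47% among mutant libraries (0.366 to 55.2%), and that of 1073 rows of 100 to 1000 RPKM was 7.68 and 5.92%. It exceeded 30% in 8 rows in WT, namely the 7 rows low with 8-base barcodes and rank 20, and in 6 rows in the mutant, ranks 7, 9, 11, 20, 40 and 53. At the other end, rank 49 at chromosome 6, 40050688 to 40052652, held 2291, 2225 and 2217 in WT and 2289, 2226 and 2031 in the mutant. Rank 12, at chromosome 4, 21334900 to 21335979 (1080 bases), measured 21486, 21467 and 22331 in WT and 22616, 21870 and 23878 in the mutant, and both of these rows overlapped between genotypes.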

How the data were processed

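Per the file headers, the authors deposited RPKM, in 1 table of 41406 rows for each of the 6 libraries (3 WT, 3 zmbzip22). Per the submitters' processing notes, TopHat, SAMtools 0.1.19 and the build B73 RefGen_v3 were used. No source used here gives the RPKM program, the annotation, the strand setting or the handling of reads with several alignments, and sharing of reads among similar copies can move RPKM between rows. Libraries were scaled by the median of ratios, taken over rows exceeding 1 RPKM in all 6. A row was tested where 3 or more libraries reached 1 scaled RPKM, which held for 28172 rows. They were tested as log2(scaled RPKM + 1) with limma 3.58.1 in R 4.3.3 (trended and robust empirical Bayes, two-sided, Benjamini-Hochberg adjustment over all rows tested, threshold 0.05). Fold changes are on this scale, where the pseudocount of 1 hardly matters at 1000 RPKM. The genotype fit had no covariate, and the barcode fit had genotype in it. Summed levels of groups were compared by the exact two-sided permutation test over libraries.

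RPKM is not a count, so depth was read from its steps. Where 2 libraries held a value below 0.3 RPKM, 98.2 to 98.9% of the ratios were those of whole numbers (at most 10) after 1 common factor, with a relative tolerance of 0.002. The absolute scale rests on 287 rows and on locus widths, and models shorter than their locus would lower it.

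Named with values were the 10 most abundant rows, all rows called for genotype in the fit without covariate, with barcode length or in replicates 1 and 2, all rows of groups of at least 3, the 5 largest differences each way by genotype and by barcode length, and 3 rows on each side of the threshold. Ranks 12, 15, 16, 35, 38, 49 and 52 and the set of 7 rows were added after their values were seen. The rows and classes were chosen with earlier results of these data known. The fit was tested on simulated data. No annotation or sequence of the files' build was used.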

Additional observations from a re-analysis of the deposited data

Results flagged for a closer look

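In 8 of the 76 rows the genotype difference was not the same in the 2 barcode lengths at an unadjusted p below 0.05, although none passed adjustment (limma interaction, adjusted p = 0.9998 in each). In all 8 the mutant was lower with 6-base barcodes and higher with 8-base barcodes. The interaction, given as the log2 difference with 8 bases minus that with 6 bases, was 0.9062 in rank 5 (unadjusted p = 0.004893), 1.005 in rank 7 (0.005706), 0.9881 in rank 9 (0.006955) and 0.8751 in rank 11 (0.0115), by limma. It was 1.06 in rank 16 (0.02798), 0.8459 in rank 22 (0.01756) and 1.104 in rank 27 (0.02566), by limma. These are the 7 rows that were low with 8-base barcodes in both genotypes, and their low level was deeper in the WT library than in the mutant library. In rank 40 the interaction was the largest, 1.375 (limma, unadjusted p = 0.003049), from a log2 difference of -0.79 with 6 bases and 0.56 with 8. The 8-base arm holds 1 library per genotype, so a difference between these 2 libraries and a difference by barcode length cannot be told apart.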

How the results depend on the processing

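Ranks 24, 29 and 68 were called lower in all 15 alternatives, with log2 differences of -1.51 to -1.33, -1.46 to -1.32 and -1.34 to -1.17 and adjusted p of at most 0.0343, 0.0177 and 0.0377 (limma). Rank 41 was called in 6 of 15, with adjusted p from 0.0139 to 0.238 (limma). The count of rows called lower, 4, became 12 with barcode length as a covariate and stayed between 3 and 6 otherwise, and it was 3 whichever library was left out. At a threshold of 500 RPKM 6 of 158 rows were lower, and at 2000 RPKM 3 of 50. Both come from the fit without covariate, where 0.302% of all tested rows were lower. The replicate number as a block gave 6 lower and 1 higher, the latter being rank 36 (limma, adjusted p = 0.0356). The numbers were not taken as pairs, since the correlations of deviations were 0.05, 0.12 and 0.38 and the labels tie no number to a shared ear or day, although both replicates 3 share the longer barcode; WT replicate 1 correlated best with zmbzip22 replicate 2. For barcode length, leaving out 1 of the 6-base libraries gave at most 12 rows lower and at most 6 higher with 8 bases, and the fewest calls without a mutant library. Omitting the genotype term gave 1 higher and values as deposited gave 8, with a median log2 difference of 0.04 over all rows. Backgrounds of alternative fits not covered above are not given here, so their counts show only how the calls moved with the processing.

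Differences near 0 changed sign, and the cause was not tested beyond the fewer libraries in some fits. The mutant minus WT share of the 76 rows was -3.84 to 0.156 points when 1 library was left out and 0.0658 when weighted by width. For the chromosome 4 group from 5098146 the difference of sums was -2268 to 2015 without 1 library, 616 with replicates 1 and 2 alone, 1538 with values as deposited and 843 with a 10 kb limit. For the group from 5521258 it was -7680 to 1873 without 1 library and 838 with values as deposited. With values as deposited the log2 differences of ranks 3, 13, 54 and 74 became 0.0219, 0.0310, 0.0397 and 0.0039. With replicates 1 and 2 alone ranks 19 and 54 became -0.0104 and 0.0510, upper-quartile scaling gave -0.0074 for rank 19, and scaling by the other rows gave 0.0045 for rank 54. Leaving out 1 library gave ranges of -0.112 to 0.0274 (rank 3), -0.69 to 0.26 (rank 5), -0.72 to 0.32 (rank 7), -0.81 to 0.37 (rank 9), -0.67 to 0.34 (rank 11), -0.102 to 0.0554 (rank 13) and -0.152 to 0.0138 (rank 14). The ranges were -0.10 to 0.10 (rank 19), -0.10 to 0.45 (rank 20), -0.0223 to 0.134 (rank 21), -0.81 to 0.31 (rank 27), -0.229 to 0.0529 (rank 30), -0.438 to 0.0115 (rank 53), -0.10 to 0.15 (rank 54) and -0.130 to 0.0372 (rank 74). Depth is far above the floor of 3 reads in all of these rows.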

Other observations

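A shift between models of a locus with barcode length, as at the loci of ranks 20 and 3, was also seen at other loci. The 2 given first had only their more abundant model among the 76. At chromosome 8, 133996632 to 133998309, rank 58 stood at 1.85 and 1.69 times the second model in WT replicates 1 and 2, at 1.91 and 1.85 times in zmbzip22 replicates 1 and 2, and at 2.94 and 2.92 times in replicate 3 of WT and mutant. At chromosome 2, 21389640 to 21391610, rank 73 stood at 1.51 and 1.72 times the second model in WT replicates 1 and 2 and at 1.58 and 1.64 times in the mutant. In replicate 3 it fell below the second model, to 0.768 times in WT and 0.853 times in the mutant. At chromosome 9, 11500925 to 11507687, by contrast, rank 48 stood at 6.75 to 6.97 times the second model in all 6 libraries. These loci were picked after their values were seen, and no test was made of the ratios.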
